A study of Mus musculus with 6 samples.

Results

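Interferon response genes are the transcripts that cells switch on after an interferon binds its receptor. A list of 45 such genes was followed in adult mouse kidney, and 40 of them were measured through a transcript cluster annotated to a single gene, out of 22180 genes measured that way. Where a gene had several such clusters, the one with the highest mean was used. The list was parted into 31 measured genes of the type I side and 9 of the gamma-type side, the latter being the Gbp and Irg GTPases and the antigen-processing genes of the Tap and Psmb families. Of the 5 members not measured, 4 (Oas1a, Ifi27l2a, Irf5 and Gbp2) shared a cluster with another gene and 1 (Ifi44) had no cluster in the annotation.

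Total RNA from part of a kidney was hybridised to Affymetrix Mouse Gene 2.1 ST arrays, 1 array for each of 6 samples. In 3 samples, labelled Pax28 dKO and numbered 1, 3 and 5, the mice were homozygous for floxed Pax2 and Pax8 and carried Rosa26CreER, a tamoxifen-activated Cre recombinase at a locus active in nearly all cell types. The 3 samples labelled Control, numbered 2, 4 and 6, were Cre-negative, so the deletion and the presence of Cre cannot be told apart. Both groups received tamoxifen at 50 mg/kg in corn oil, in 3 daily injections begun at 8 weeks of age and repeated at 10 weeks, with harvest 14 days after the last dose. Each group held 2 females and 1 male, and the males are knockout 1 and control 4. That each array stands for its own animal is not stated in the labels, so the p-values below reflect the spread among these 6 samples, which may be technical. Values are log2 expression, and a difference is that between the group means in a limma model that allows for sex, with its standard error (SE). A gene passed where its p, adjusted over all 22180 genes, was at most 0.05.

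The targeted genes were not lower on the arrays labelled knockout. Pax8 was higher there (10.36 ± 0.24 against 9.0 ± 0.10, SD, n = 3 per group; limma adjusted p = 0.0037), and Pax2 differed by 0.27 ± 0.10 (SE) and did not pass (adjusted p = 0.19). A probe outside the deleted exons checks nothing, and where these probes lie was not analysed here, so every direction below is that of the arrays labelled knockout. The segment markers Umod, Lrp2, Slc34a1, Slc12a1, Slc12a3 and Aqp2 all lay above 8 on every array, and Nphs1, of podocytes, lay between 5.28 and 5.79. Of these 7 markers 2 fell, against 3.08% of all genes: the collecting duct water channel Aqp2 (-0.88 ± 0.16, SE; adjusted p = 0.024) and the proximal tubule phosphate transporter Slc34a1 (-0.47 ± 0.08; adjusted p = 0.022). Both calls were lost without control 2 or without control 6, and that of Slc34a1 also without knockout 3 or knockout 5 (adjusted p up to 0.099 for Aqp2 and 0.088 for Slc34a1). On all 3 arrays labelled knockout, 4 of the 7 lay below every control, against 10.8% of all genes. Others of the 7 went the other way without passing. Umod (0.31 ± 0.09; adjusted p = 0.11) was the 1 that lay above every control, against 11.7% of all genes, and Slc12a3 (0.33 ± 0.09; adjusted p = 0.082) overlapped. The part of these markers in the members' values was not tested. Fat signal differed between arrays: Ucp1, the uncoupling protein of brown fat, was 7.77 and 7.53 on controls 2 and 6, whereas the remaining arrays ranged from 3.53 to 5.12. Over 5 fat markers, the summed signal on the linear scale was graded. It was 1435, 459 and 1131 on controls 2, 4 and 6, and 698, 942 and 608 on knockouts 1, 3 and 5. The median difference of these markers was 0.69 between the males and -1.06 between the females, and none of the 5 passed. In whole tissue, more cells of a type and more RNA per cell cannot be told apart.

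Type I interferons, the alpha and beta families, signal through the IFNAR receptor to a complex that holds STAT2 and IRF9 and binds the interferon-stimulated response element (ISRE) in promoters. Interferon gamma, made mainly by T and NK cells, signals through the IFNGR receptor to gamma-activated sites (GAS) in promoters, and it induces IRF1. The target genes overlap. The gamma-type side was set by gene family (Gbp, Irg, Tap and Psmb), and the type I side holds every other member, Irf1 among them. The sides therefore do not name the interferon that acted. In kidney, tubular, endothelial and immune cells can all respond.

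More interferon response genes rose than fell in the arrays labelled knockout. Of the 40 measured members 21 rose, 52.5% of the list against 4.12% of all genes called higher, and 0 fell, against 3.08% of all genes called lower. At an unadjusted p below 0.05 in limma, 31 were higher and 1 was lower, against 2565 and 2324 of all 22180 genes. The median log2 difference was 0.54 over the members and -0.01 over all genes. On the type I side 16 of 31 rose (51.6%), with a median of 0.58, and on the gamma-type side 5 of 9 rose (55.6%), with a median of 0.53. The difference between the sides was not tested. On all 3 arrays labelled knockout, 30 of the 40 members lay above every control, against 11.7% of all genes, and 1 member lay below every control, against 10.8%. For some of the 30 the margin was very small: 7.3423 against 7.3412 for Ddx58, 4.192 against 4.187 for Oasl1 and 5.495 against 5.490 for Irgm1. With single arrays left out, 1 member passed when control 2 was dropped, 4 for control 6, 3 for knockout 5, 10 for control 4 or knockout 1, and 20 for knockout 3. Leaving out control 4 and leaving out knockout 1 give the same fit, that on the females. Counts out of the 6 fits below include it under both names. Leaving out controls 2 and 6 together, a choice made after seeing the data, leaves 1 control, the male control 4. With sex in the model the difference is then that of a single pair of arrays, knockout 1 minus control 4. Its median was 0.66 on the type I side and 0.78 on the gamma-type side, and no call is read from it.

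**Figure D1:**
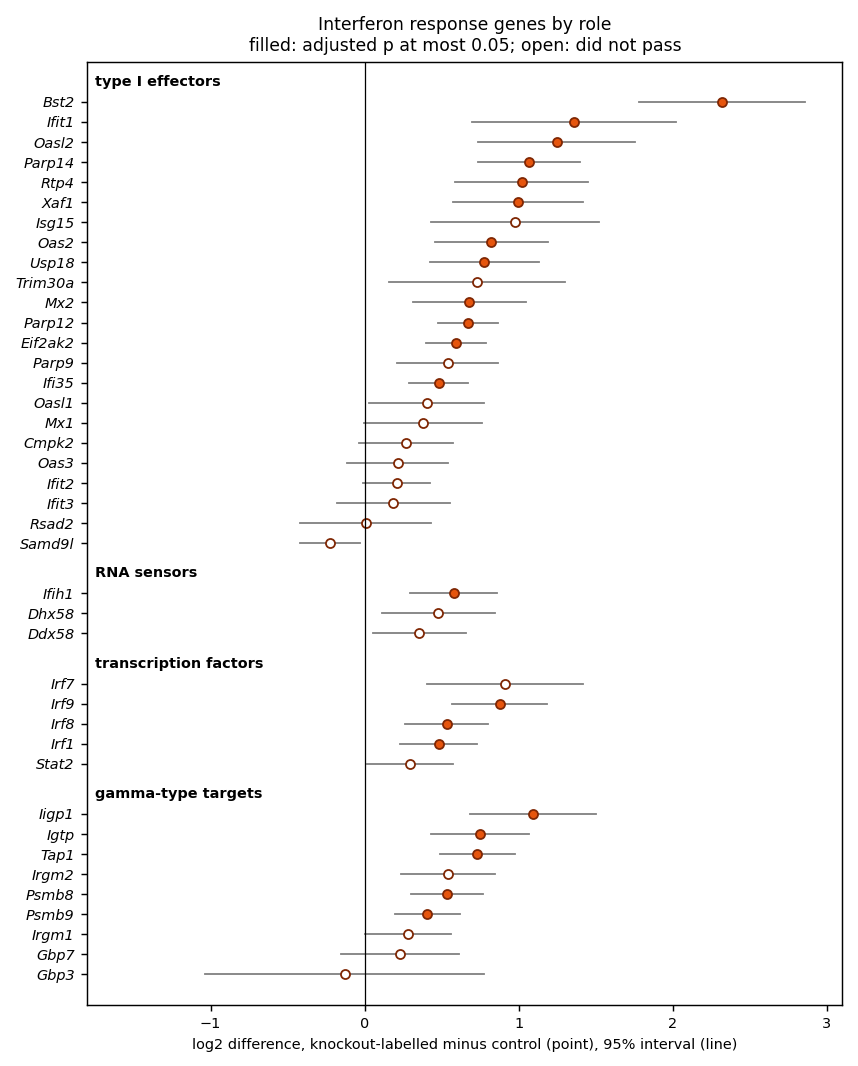
Log2 difference (arrays labelled knockout minus controls, sex-adjusted; horizontal axis) of the 40 measured members, grouped by role, with limma's 95% interval as a line. Filled points passed at an adjusted p of at most 0.05 (21 members, all to the right of 0), and Bst2 stands farthest right at 2.32.

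Among the antiviral effectors, the proteins that block viruses inside the cell, 12 of 23 rose, against 4.12% of all genes. Their median log2 difference was 0.67. Bst2 encodes tetherin, a membrane protein that holds budding virus particles on the cell surface. It stood at 7.84, 7.34 and 7.52 on knockouts 1, 3 and 5 and at 5.37, 4.77 and 5.60 on controls 2, 4 and 6. The groups were thus far apart, with a log2 difference of 2.32 ± 0.23 (SE), or 4.98-fold (95% interval 3.43 to 7.23; adjusted p = 0.0047). Bst2 alone among the members that passed did so without any single array, the adjusted p then reaching 0.033.

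The Ifit genes, whose proteins bind foreign RNA and stop its translation, were called in 1 of 3 cases. Ifit1 stood at 7.01, 5.95 and 6.70 on knockouts 1, 3 and 5 and at 5.27, 4.90 and 5.43 on controls 2, 4 and 6. It rose by 1.36 ± 0.28 (SE), 2.56-fold (adjusted p = 0.036), and knockout 3 lay closest to the controls. Ifit2 differed by 0.21 (95% interval -0.01 to 0.42) and Ifit3 by 0.19 (-0.18 to 0.55), and neither passed. Their groups overlapped. Differences between these genes were not tested, and array probes for Ifit3 may also bind its near copy Ifit3b, whose own cluster, dim in both groups, differed by 0.31 without passing. Leaving out any array but knockout 3 ended the call of Ifit1 (adjusted p up to 0.12).

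Isg15 encodes a ubiquitin-like protein that is attached to other proteins during the response, and Usp18 the protease that removes it and also damps receptor signalling. Isg15 stood at 6.43, 5.54 and 6.28 on knockouts 1, 3 and 5 and at 5.15, 4.93 and 5.24 on controls 2, 4 and 6. The groups did not overlap, but the difference of 0.97 ± 0.23 (SE) missed the threshold (adjusted p = 0.054), and it passed without knockout 3 (0.015). Usp18 stood at 6.33, 5.92 and 6.46 against 5.44, 5.38 and 5.56 in the same order, and rose by 0.78 ± 0.15 (adjusted p = 0.031). Its call was kept without knockout 3 and lost without any other single array (adjusted p up to 0.11).

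Rsad2, or viperin, and its neighbour Cmpk2, which together make an antiviral nucleotide, did not pass. Rsad2 stood at 6.98, 6.35 and 7.02 on knockouts 1, 3 and 5, and at 6.84, 6.75 and 6.74 on controls 2, 4 and 6. Knockout 3 was below all the controls and the others were above them. The difference was 0.01 ± 0.18 (SE), with a 95% interval from -0.42 to 0.43, so a rise as large as that of Bst2 lies outside it. Cmpk2 differed by 0.27 (-0.04 to 0.57).

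The stretches of promoter sequence below, from the RefSeq promoter table of assembly GRCm38.p6, show that an ISRE sequence is found both before Bst2 and Ifit1, which rose, and before Isg15 and Rsad2, which did not pass. Each is the 160 bases just before the annotated start, read 5′ to 3′ along the gene's strand, with matches to GAAA, any 2 bases, GAAA (ISRE) or TTC, any 3 bases, GAA (GAS) on either strand in capitals. Bst2 (chr8:71537473-71537632, reverse strand) holds 2 overlapping ISRE matches, at 130 and 124 bases before the start, and a GAS match at 136 that runs into the first of them. Ifit1 (chr19:34640729-34640888, forward strand) holds 2 ISRE matches, at 104 and 85 bases. Isg15 (chr4:156200819-156200978, reverse strand) holds 3 overlapping ones between 78 and 66 bases. Rsad2 (chr12:26456453-26456612, reverse strand) holds 1, at 120 bases.
Bst2: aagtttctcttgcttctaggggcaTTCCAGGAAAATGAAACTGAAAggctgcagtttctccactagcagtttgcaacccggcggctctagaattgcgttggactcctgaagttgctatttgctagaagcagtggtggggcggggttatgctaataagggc
Ifit1: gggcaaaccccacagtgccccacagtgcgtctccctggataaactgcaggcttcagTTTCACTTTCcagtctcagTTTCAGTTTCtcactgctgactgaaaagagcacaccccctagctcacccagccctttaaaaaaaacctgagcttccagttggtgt
Isg15: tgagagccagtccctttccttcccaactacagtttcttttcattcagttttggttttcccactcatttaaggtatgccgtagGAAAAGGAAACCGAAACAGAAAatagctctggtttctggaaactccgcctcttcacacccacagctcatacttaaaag
Rsad2: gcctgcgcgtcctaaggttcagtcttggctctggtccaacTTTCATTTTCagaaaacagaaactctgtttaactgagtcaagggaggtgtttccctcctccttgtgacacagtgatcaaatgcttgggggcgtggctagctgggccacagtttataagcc
Over the full window of 250 bases before to 50 after the start, 18 of the 35 members with an entry held an ISRE match (51.4%), against 3.99% of 27025 genes. Among members that rose, 5 of 15 with an entry held one, and among those that did not pass, 11 of 16. A GAS match was in 11 of 35 members (31.4%), against 9.55% of genes, and in 7 of the 15 that rose and 3 of the 16 that did not pass. A match is a description of the letters and not a site at work.

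The oligoadenylate synthetases sense viral RNA and activate the nuclease RNase L, and the Oasl genes encode relatives of them. Oasl2 stood at 7.03, 6.37 and 6.63 on knockouts 1, 3 and 5 and at 5.59, 5.08 and 5.63 on controls 2, 4 and 6, a rise of 1.25 ± 0.21 (SE) with no overlap (adjusted p = 0.023). Oas2 stood at 4.86, 4.49 and 5.08 against 3.99, 3.94 and 4.05 in the same order, a rise of 0.82 ± 0.15 (adjusted p = 0.029). Oasl1, which limits translation of Irf7, differed by 0.40 (95% interval 0.03 to 0.78) and did not pass (adjusted p = 0.19). Oas3 differed by 0.21 (-0.11 to 0.54), with both group means below 3.38, the limit used for dim genes, which cuts off the lowest 33.3% of gene means. The call of Oasl2 did not hold when control 2, control 6 or knockout 5 was left out (adjusted p reaching 0.075), and Oas2 without any array but knockout 3 (up to 0.11).

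The poly(ADP-ribose) polymerases of the response included calls that held in 5 of the 6 fits with an array left out. Parp14 stood at 7.67, 7.25 and 7.61 on knockouts 1, 3 and 5 and at 6.45, 6.30 and 6.57 on controls 2, 4 and 6, a rise of 1.07 ± 0.14 (SE; adjusted p = 0.011). Parp12, which restricts viral replication, stood at 7.89, 7.93 and 8.10 against 7.34, 7.20 and 7.37, a rise of 0.67 ± 0.08 (adjusted p = 0.0091). Both lost their calls without control 2 alone, by a narrow margin (adjusted p = 0.053 for Parp14 and 0.051 for Parp12). Parp9, a partner in the same response, differed by 0.54 ± 0.14 without overlap and did not pass (adjusted p = 0.068). Eif2ak2, the kinase PKR that halts translation on sensing viral RNA, stood at 7.79, 7.89 and 7.97 against 7.26, 7.31 and 7.30. Its groups were separate, with a rise of 0.59 ± 0.08 (adjusted p = 0.012) that was lost without control 2, control 6 or knockout 5 (up to 0.059).

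Rtp4, a chaperone of G protein-coupled receptors that also restricts viruses, stood at 7.37, 6.80 and 7.14 on knockouts 1, 3 and 5 and at 6.21, 5.81 and 6.24 on controls 2, 4 and 6, a rise of 1.02 ± 0.18 (SE; adjusted p = 0.024). Xaf1, a promoter of cell death, stood at 7.42, 6.86 and 7.35 against 6.17, 6.04 and 6.43, a rise of 1.0 ± 0.18 (adjusted p = 0.025). In both genes knockout 3 was the lowest of its group and still above every control. Ifi35 stood at 6.35, 6.46 and 6.49 against 6.02, 5.94 and 5.90, the smallest rise among the effectors at 0.48 ± 0.08 (adjusted p = 0.021). The GTPase Mx2 stood at 4.56, 3.66 and 3.75 against 3.16, 3.42 and 3.36, with knockout 1 far above the rest of its group. Its rise was 0.68 ± 0.15 (adjusted p = 0.049), but its control mean lay below the dim limit, and counted from that limit the rise was 0.62, or 1.53-fold. With single arrays left out, Mx2 lost its call in all 6 fits (adjusted p up to 0.14), Xaf1 in 5 (up to 0.098), Ifi35 in 4 (up to 0.081) and Rtp4 in 3 (up to 0.086), always including those without control 2 and without control 6. Trim30a (0.73 ± 0.24) and the dim Mx1 (0.38 ± 0.16) did not pass, with adjusted p of 0.13 and 0.24. Samd9l, an antiviral protein that inhibits translation, was the 1 member below every control. It stood at 7.11, 6.92 and 7.06 against 7.17, 7.37 and 7.23, a difference of -0.23 ± 0.08 that did not pass (adjusted p = 0.16).

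Of the cytosolic RNA sensors, which start interferon production, 1 of 3 rose, against 4.12% of all genes. Ifih1 (MDA5) stood at 7.70, 7.46 and 7.81 on knockouts 1, 3 and 5 and at 7.08, 6.96 and 7.19 on controls 2, 4 and 6, a rise of 0.58 ± 0.12 (SE; adjusted p = 0.036) that held without knockout 3 and was lost without any other single array (up to 0.12). Dhx58 (LGP2), which modulates the others, differed by 0.48 ± 0.15 and Ddx58 (RIG-I) by 0.35 ± 0.13. Neither passed (adjusted p = 0.13 and 0.16), although in both no array labelled knockout lay below a control. For Ddx58 the margin was very small, with knockout 3 at 7.3423 and control 6 at 7.3412. Dhx58 passed without knockout 3 (0.034).

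Transcription factors of the response rose in 3 of 5 cases, against 4.12% of all genes. Irf9, the DNA-binding part of the complex that type I interferon activates, stood at 7.17, 7.06 and 7.24 on knockouts 1, 3 and 5 and at 6.48, 5.93 and 6.42 on controls 2, 4 and 6. Control 4 was low and the arrays labelled knockout lay close together, and the rise was 0.88 ± 0.13 (SE; adjusted p = 0.015). Irf8, a factor of myeloid and B cells, stood at 6.17, 6.03 and 6.34 against 5.80, 5.46 and 5.68, a rise of 0.53 ± 0.11 (adjusted p = 0.041). Irf1, which drives the gamma-type genes, stood at 6.05, 6.51 and 6.27 against 5.76, 5.74 and 5.89, a rise of 0.48 ± 0.10 (adjusted p = 0.043). It is the 1 member that passed and was highest on knockout 3. Irf7, which amplifies type I interferon production, stood at 7.21, 6.65 and 7.30 against 6.06, 5.91 and 6.46, and its difference of 0.91 ± 0.21 missed the threshold (adjusted p = 0.053). It passed without knockout 3 (0.027). Stat2 differed by 0.29 (95% interval 0.01 to 0.57; adjusted p = 0.20). Irf9 lost its call without control 2, control 6 or knockout 5 (up to 0.062), Irf8 without any array but knockout 3 (up to 0.14), and Irf1 without any of the 6 (up to 0.14).

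**Figure D2:**
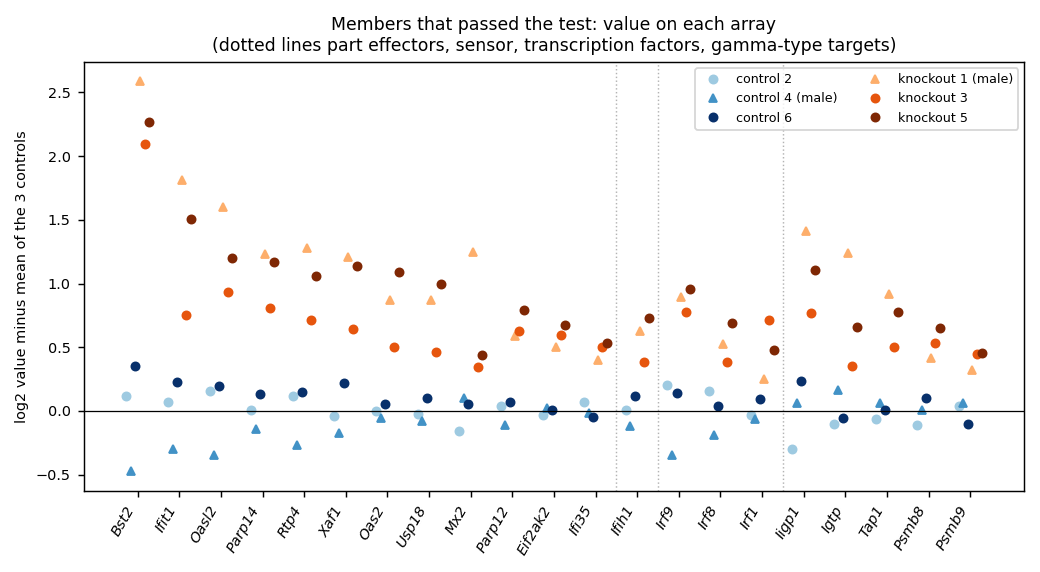
Value on each array minus the mean of the 3 controls (log2; vertical axis) for the 21 members that passed, with triangles for the males. Every array labelled knockout lies above every control for each gene, and knockout 3 is the lowest of its group in 15 of the 21.

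The gamma-type side held the immunity-related GTPases, which attack the vacuoles of intracellular parasites. Iigp1 stood at 7.41, 6.77 and 7.10 on knockouts 1, 3 and 5 and at 5.70, 6.07 and 6.24 on controls 2, 4 and 6, the largest rise of this side at 1.09 ± 0.17 (SE; adjusted p = 0.018). Igtp stood at 7.55, 6.66 and 6.97 against 6.21, 6.48 and 6.25, a rise of 0.75 ± 0.13 (adjusted p = 0.025). Its neighbour Irgm2 stood at 7.18, 6.53 and 6.86 against 6.19, 6.40 and 6.36, and its difference of 0.54 ± 0.13 did not pass (adjusted p = 0.055). In all 3 genes knockout 1 was highest and knockout 3 lowest of their group. The difference of Irgm1, 0.28 ± 0.12, missed the threshold (adjusted p = 0.22). Iigp1 lost its call without control 2, control 4, knockout 1 or knockout 5 (up to 0.073), and Igtp without any array but knockout 3 (up to 0.091).

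Igtp and Irgm2 are related neighbouring genes, and the sequence before their starts shows why the pair is set side by side: each holds a GAS match 11 bases ahead of an ISRE match, in capitals as above. The stretches are chr11:58199396-58199555, forward strand, and chr11:58214817-58214976, forward strand, both from GRCm38.p6. In Igtp the ISRE match begins 34 bases before the start and in Irgm2 64 bases.
Igtp: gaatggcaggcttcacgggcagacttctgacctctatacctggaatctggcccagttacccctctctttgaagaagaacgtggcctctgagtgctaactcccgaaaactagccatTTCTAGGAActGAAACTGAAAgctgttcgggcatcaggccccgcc
Irgm2: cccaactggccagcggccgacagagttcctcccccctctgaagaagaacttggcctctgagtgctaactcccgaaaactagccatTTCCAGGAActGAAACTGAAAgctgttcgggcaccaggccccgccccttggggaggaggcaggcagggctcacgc
On the gamma-type side 6 of 9 members with an entry held an ISRE match and 4 of 9 a GAS match in the full window. Of the 4 with an entry that rose, 1 held an ISRE match, and of the 4 that did not pass, all did.

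The antigen-processing genes lie side by side in the major histocompatibility complex, and all 3 rose. Tap1, a subunit of the peptide transporter that supplies class I molecules, stood at 7.25, 6.83 and 7.11 on knockouts 1, 3 and 5 and at 6.27, 6.39 and 6.34 on controls 2, 4 and 6, a rise of 0.73 ± 0.10 (SE; adjusted p = 0.013). Psmb8 and Psmb9 encode subunits that turn the proteasome into the immunoproteasome. Psmb8 stood at 6.74, 6.86 and 6.98 against 6.21, 6.34 and 6.43, a rise of 0.53 ± 0.10 (adjusted p = 0.026). Psmb9 stood at 5.14, 5.27 and 5.28 against 4.86, 4.89 and 4.72, a rise of 0.41 ± 0.09 (adjusted p = 0.044). Tap1 lost its call without control 2, control 6 or knockout 5 (up to 0.061), Psmb8 without those or knockout 3 (up to 0.094), and Psmb9 in all 6 fits (up to 0.14).

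Neither of the measured members that encode guanylate-binding proteins, large GTPases of the gamma response, passed. Gbp7 differed by 0.23 (95% interval -0.16 to 0.61) and Gbp3 by -0.13 (-1.03 to 0.78; adjusted p = 0.89). Gbp3 stood at 6.76, 6.31 and 7.12 on knockouts 1, 3 and 5 and at 7.18, 5.75 and 7.64 on controls 2, 4 and 6. The males ran one way (knockout 1 above control 4 by 1.01) and the females the other (-0.70 on average). The genotype by sex term for Gbp3 did not pass either (adjusted p = 0.62). Its controls had the widest spread of any member, with an SD of 0.99.

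Other genes of the pathway, from lists outside the 40 members, were read in the same fit. Of 17 measured interferon ligand genes none rose or fell in limma, against 4.12% and 3.08% of all genes. At an unadjusted p below 0.05, 1 was higher and 2 were lower, against 2565 and 2324 of all 22180 genes. The list median was -0.09, with differences from -0.33 to 0.33. For 11 of the ligand genes both group means lay below the dim limit. Ifnb1, the beta interferon, was at 2.31 ± 0.06 against 2.51 ± 0.19 (SD, n = 3), and Ifng at 3.03 ± 0.21 against 3.11 ± 0.05. Levels this dim say little about whether the ligands were made. Among 11 receptor and signalling genes 1 rose (9.09%), against 4.12% of all genes. It was the gamma receptor chain Ifngr1 (0.51 ± 0.11, SE; adjusted p = 0.041). The other chain, Ifngr2, differed by 0.45 ± 0.11 (adjusted p = 0.063), and the type I receptor chains Ifnar1 by 0.16 ± 0.09 and Ifnar2 by 0.23 ± 0.08, none of which passed. The list's differences ran from -0.02 to 0.51.

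Of 17 measured genes that sense nucleic acids or lipopolysaccharide upstream of interferon, 3 rose (17.6%), against 4.12% of all genes. Sting1, the adaptor for cytosolic DNA, stood at 6.50, 6.78 and 6.97 on knockouts 1, 3 and 5 and at 5.78, 5.40 and 5.41 on controls 2, 4 and 6. The rise was 1.22 ± 0.12 (SE), or 2.34-fold (adjusted p = 0.0050), and it held without any single array (up to 0.024). The endosomal RNA receptor Tlr3 rose by 0.57 ± 0.09 and the nucleotide hydrolase Samhd1 by 0.37 ± 0.08. The DNA sensor Cgas differed by 0.23 ± 0.08, below the dim limit in both groups, and did not pass. The adaptor Mavs (-0.16 ± 0.08) and the transcription factor Irf3 (-0.04 ± 0.09) did not pass either.

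Further interferon targets outside the members rose in 10 of 46 type I cases (21.7%) and in 7 of 24 gamma-type cases (29.2%), against 4.12% of all genes, and none fell, against 3.08%. The list medians were 0.31 and 0.33. On the type I side these were Epsti1 (1.14 ± 0.08, SE), the chemokine Cxcl10 (1.35 ± 0.13), Ly6e (0.86 ± 0.09), Ube2l6 of the Isg15 pathway (0.48 ± 0.08), Slfn2 (0.72 ± 0.12), the membrane protein Ifitm3 (0.89 ± 0.16), Ifi204 (1.20 ± 0.24), Pml (0.34 ± 0.07), Oas1b (0.52 ± 0.12) and Oas1g. The control mean of Oas1g lay below the dim limit, and counted from there the rise was 2.80-fold. Oas1g is a near copy of Oas1a, so its probes may not part them. On the gamma-type side the genes called were Tap2 (0.53 ± 0.08), Tapbp (0.55 ± 0.08), Psmb10 (0.84 ± 0.12), the proteasome activator Psme1 (0.49 ± 0.09), H2-K1 (0.64 ± 0.10), Gbp8 (0.93 ± 0.17) and the complement inhibitor Serping1 (0.52 ± 0.09), whose groups overlapped. Among the genes of that list that did not pass were B2m (0.30 ± 0.08), H2-Q4 (0.34 ± 0.12), Nlrc5 (0.42 ± 0.11), H2-T23 (-0.11 ± 0.09) and Psme2 (-0.16 ± 0.13). Cxcl10, Epsti1, Ly6e and Sting1 kept their calls without any single array. The calls of Pml, Ube2l6, Samhd1 and Serping1 were lost in all 6 such fits (adjusted p up to 0.14), and the other calls in this and the preceding paragraphs on lists outside the members in between 2 and 5 of them, those without control 2 or control 6 among them in each case.

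**Figure D3:**
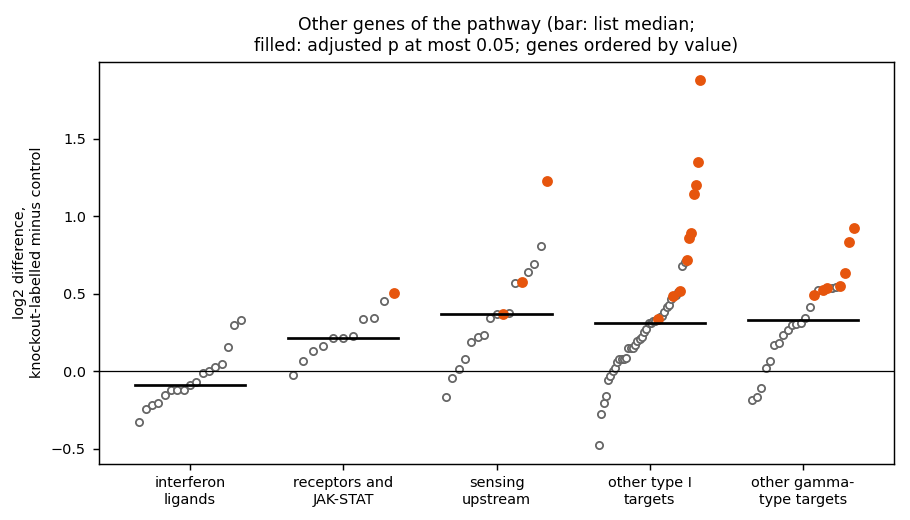
Log2 difference (vertical axis, arrays labelled knockout minus controls) of the other measured genes of the pathway, each point a gene, ordered by value within 5 lists, with the list median as a bar. No ligand is filled (passed), and the highest points are Oas1g, whose control mean is dim, and Cxcl10 at 1.35.

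The arrays did not line up in the same order for all lists. Against the control mean, the type I side had a median of 0.59 on array 1, 0.43 on array 3 and 0.71 on array 5 of the group labelled knockout, and the gamma-type side medians of 0.60, 0.35 and 0.54. Knockout 3 was the lowest of its group for 32 of the 40 members and 26 of the 31 of the type I side (83.9%), against 30.9% of all genes. Among controls, control 4 was the lowest for 22 of the 31 type I members and for 1 of the 9 gamma-type members, against 39.2% of all genes. Macrophage and monocyte markers were higher too: 10 of 15 rose, against 4.12% of all genes, with a median of 1.23, and all 15 lay above every control, against 11.7%. They included Ctss (1.69 ± 0.10, SE), Cd68 (1.27 ± 0.11) and C1qa (1.44 ± 0.16), the calls of which held without any single array. Their summed signal on the linear scale ran from 1662 to 2716 on the arrays labelled knockout and from 885 to 980 on controls, and none of the 15 had a control mean below the dim limit. Their order differed from that of the members: knockout 1 was the lowest of its group for 14 of 15 markers and knockout 5 the highest for 14. The part these cells play in the values of the members was not tested.

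**Figure D4:**
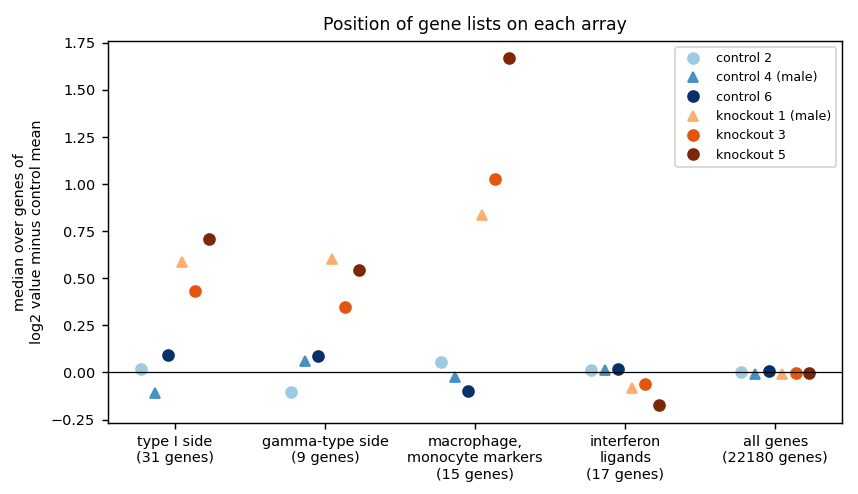
Median over the genes of each list of the log2 value minus the control mean (vertical axis), for every array, with triangles for the males. Knockout 3 is the lowest array labelled knockout for both interferon sides, whereas macrophage markers run from 0.84 on knockout 1 to 1.67 on knockout 5.

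Markers of other blood cells gave fewer calls. Over all genes 4.12% were called higher and 3.08% lower. Of 12 T and NK cell markers 2 rose, Cd4 (0.89 ± 0.12, SE), also found on macrophages, and Klrb1c (0.50 ± 0.09), dim in both groups. The list median was -0.01. On all 3 arrays labelled knockout, these 2 lay above every control, against 11.7% of all genes. Below every control lay 2 others, Prf1 (-0.34 ± 0.10) and Nkg7 (-0.10 ± 0.09), against 10.8%, and neither passed. Cd3d and Gzmb had both group means below the dim limit, and the summed signal of this list ran from 162 to 183 on the arrays labelled knockout and from 148 to 163 on controls. Of 6 conventional dendritic cell markers 1 rose, Itgax (0.68 ± 0.13), a call lost without any single array (adjusted p up to 0.10), with summed signals of 219 to 249 against 200 to 257. Of 4 plasmacytoid dendritic cell markers none rose and Cox6a2, also a muscle and brown fat gene, fell to a mean below the dim limit, 2.82-fold when counted to that limit. That call held without any single array (adjusted p up to 0.017). The summed signal of all 4 ran from 38.8 to 41.8 on the arrays labelled knockout and from 55.1 to 63.2 on controls. Without Cox6a2, left out after its value was seen, the sum ran from 27.2 to 33.3 against 26.6 to 29.8. Siglech, the most specific of the 4 markers, differed by 0.29 ± 0.11 and did not pass. Of 5 B and plasma cell markers Jchain and Ighm rose, though their groups overlapped, and both also differed between the sexes. Their summed signal ran from 1657 to 6183 against 1033 to 3134. No neutrophil marker passed among 7 in limma. At an unadjusted p below 0.05 none was higher and 1 was lower, against 2565 and 2324 of all 22180 genes. In both groups 5 of the 7 were dim, and the summed signal of all 7 was 49.3 to 51.1 against 48.8 to 56.1. The part of any of these in the members' values was not tested.

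None of the 40 members differed between males and females in limma at an adjusted p of 0.05, against 1.87% of all genes. At an unadjusted p below 0.05 there were 2 of the 40, against 3579 of all 22180 genes. The genotype by sex term passed for none of 40, against 0.00451% of all genes. For this term 8 of the 40 had an unadjusted p below 0.05, against 1551 of all 22180 genes. With 1 male per group this term was weakly measured. The median difference of the members was 0.68 between the males and 0.54 between the females, and 39 and 37 of the 40 were higher on the arrays labelled knockout within each sex. For Bst2 the difference was 3.06 between the males and 1.94 between the females (adjusted p of the term = 0.49).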

How the data were processed

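The authors deposited log2 expression values per transcript cluster. RMA, limma and R 3.4.0 are named without roles, per the submitters' processing notes. Filters and the genome build were not given in the sources used here. No further scaling was applied. Of 41345 clusters, 23521 had 1 gene symbol in the platform annotation, 1814 had several and 16010 had none. RefSeq's table of GRCm38.p6 matched 23328 of the first and changed no symbol. The highest-mean cluster stood for a gene, which left 22180 genes. The dim limit (3.38) cuts off the lowest 33.3% of gene means.

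Genotype and sex were fitted with limma 3.58.1 in R 4.3.3 (default empirical Bayes, 3 residual and 6.72 total degrees of freedom), with Benjamini-Hochberg adjustment over all genes. Intervals use the moderated SE. The fit was tested on simulated data. Members, gene lists and marker lists were chosen with earlier results of these data known. All members are reported: those that passed with every array, up to 4 others per role (smallest p) with their values, the rest by counts. Outside this rule, Ifit2, Ifit3, Rsad2, Cmpk2, Oas3, Oasl1, Mx1 and the marker genes named were chosen after their values were seen. Alternatives were no sex term, females only, each array left out, another prior, array weights, other scalings, no dim genes, averaged clusters and every row tested. The 6 arrays limit the precision, and the labels used here name no batch.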

Additional observations from a re-analysis of the deposited data

Results flagged for a closer look

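A signal in clusters that the comparisons above leave out, because they are annotated to more than 1 gene, was looked for in a limma fit of every row of the table. Of 30 such clusters holding an interferon gene none passed after adjustment over all rows, against 0.73% of all rows. At an unadjusted p below 0.05, 7 of the 30 were higher. In the main limma fit, on clusters annotated to a single gene, 2565 of 22180 genes were higher at that level. In 9 of the 30, every array labelled knockout lay above every control, against 11.7% of the genes with a cluster annotated to a single gene. Among these 9 were 3 clusters that hold a member. The clusters of Ifi27l2a with Ifi27l2b (0.51 ± 0.31, SE) and of Irf5 with Tnpo3 (0.05 ± 0.20) hold a member too, and their groups overlapped. The cluster shared by Gbp2 and Gbp2b stood at 6.78, 6.71 and 6.82 on knockouts 1, 3 and 5 and at 6.07, 5.88 and 5.66 on controls 2, 4 and 6, a log2 difference of 0.90 ± 0.13 (SE; adjusted p = 0.059). The cluster shared by Oas1a and Oas1g differed by 0.69 ± 0.16 (adjusted p = 0.13), with knockout 5 (4.0338) barely above control 4 (4.0326). The cluster shared by Dtx3l and Parp9 differed by 0.56 ± 0.14 (adjusted p = 0.14). No value can be assigned to 1 of the genes of a cluster.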

How the results depend on the processing

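The 21 members that passed were higher in each of the 16 alternative fits, while the number of calls moved. These members were picked as higher in the same data, and for each every array labelled knockout lay above every control. Leaving arrays out could therefore not reverse their direction, and the shared sign is no test of it. Of the other members, 2 changed sign when single arrays were left out without passing in any such fit, Rsad2 (-0.15 to 0.23) and Gbp3 (-0.70 to 0.27). With single arrays left out, the genes that passed ranged from 344 to 1249, the members from 1 to 20, type I members from 1 to 16 and gamma-type members from 0 to 4, while the medians ranged from 0.52 to 0.66 (type I) and from 0.46 to 0.58 (gamma-type). Where no gamma-type member passed, 6 were higher at an unadjusted p below 0.05 in limma. Leaving out either male equals the fit on females only, with 10 members (8 and 2), since sex is in the model. Without a sex term 471 genes and 3 gamma-type members passed. In a test of every row, 239 of the genes passed, with 2 members, both type I, and 0 of the gamma-type side (6 at an unadjusted p below 0.05). Without controls 2 and 6 together, an alternative chosen after seeing the data with 1 residual degree of freedom, the difference is knockout 1 minus control 4. The medians of this single pair of arrays were 0.66 (type I) and 0.78 (gamma-type), and no call is read from it. With dim rows left out, 1 cluster with several symbols passed. Irf1, Irf8, Mx2 and Psmb9 lost their calls after quantile normalization or median centring, and Ifi35 and Irf8 when clusters were averaged. No member passed for sex or for the genotype by sex term in any alternative run, and the latter could not be fitted without a male. No paired analysis was possible because the groups share no replicate number.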

Other observations

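By gene order in the RefSeq table, 8 pairs of members are neighbouring protein-coding genes. In 2 pairs both members rose (Psmb9 with Tap1, and Tap1 with Psmb8), in 3 pairs 1 did (Igtp and not Irgm2, Oasl2 and not Oasl1, Oas2 and not Oas3), and in 3 pairs neither did (Rsad2 with Cmpk2, Ifit2 with Ifit3, and Gbp7 with Gbp3). The difference within a pair was not tested. The second cluster of Ifi35 and of Irf8, which was not used above, had a mean of 3.30 and 3.42 over the arrays, near the dim limit, and differed by -0.06 and 0.01.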
